A study of Mus musculus with 12 samples.

Results

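The metalloproteinases of the Mmp, Adam and Adamts families and the tissue inhibitors of metalloproteinases (Timp) were examined in newborn mouse lungs with 1 or 2 working copies of Foxf1. The members are the genes whose symbol in the array annotation is Mmp, Timp, Adam or Adamts followed by a number, without Adamts1 and without the Adamtsl genes. They number 73 of the 19057 genes on the array. Each is represented by the probe with the highest mean over the 12 arrays in the values processed by the authors. The 73 members have 145 probes, and 37 members have several.

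Whole lungs of 6 Foxf1+/- pups and 6 wildtype littermates were each hybridized to an Illumina MouseWG-6 v2.0 bead array, in which a probe's brightness stands for the amount of its transcript. All pups were at postnatal day 0.5 and of a mixed 129/C57BL6/J background. In the Foxf1+/- pups, exon 1 of 1 allele, which encodes the forkhead DNA-binding domain, and part of the promoter were removed through EIIa-Cre, a Cre driver that acts in many tissues and in germ cells, through which the inactive allele is passed on. The loss was thus not restricted to a lung cell type. The wildtype pups carried 2 intact alleles, and the labels name the arrays of a genotype biological replicates.

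Matrix metalloproteinases (MMPs) are zinc enzymes that are made as inactive proenzymes and cleave collagen, elastin, laminin and other proteins outside the cell. ADAMs are mostly membrane proteins, and several of them shed growth factors and receptors from the cell surface, while ADAMTS enzymes are secreted and cut proteoglycans, procollagens and other matrix proteins. TIMPs bind the active site of these enzymes with differing preference, and in the lung the balance between enzymes and inhibitors is known for its part in branching, in the formation of alveoli and vessels, and in the breakdown of tissue in emphysema.

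A cluster of MMP genes on chromosome 9 held 9 of the members, namely Mmp1a, Mmp1b, Mmp3, Mmp7, Mmp8, Mmp10, Mmp12, Mmp13 and Mmp20. Of the 73 members, 44 had an entry in the RefSeq promoter table (GRCm38.p6), which covers 250 bases before to 50 bases after an annotated transcript start. A gene with several starts can have several entries, and the 44 members had 47. The letters TGAGTCA, the classical AP-1 motif, were found on either strand in 9 of the 44, among them 7 of the 9 genes of this cluster, and in 5.2% of all 32851 promoters of the same length, or in at least 1 promoter of 5.95% of the 27025 genes of the table. The forkhead core GTAAACA was found in 4 of the 44 (Adam8, Adamts13, Mmp10 and Mmp13). It was found in 3.65% of all promoters, or in at least 1 promoter of 4.05% of the genes. In Timp1 a close variant of the AP-1 motif, TGAGTAA, was found, which 2.68% of all promoters held, or at least 1 promoter of 3.09% of the genes. This variant was searched for after the letters of the Timp1 promoter had been read. The windows are shown because most genes of this cluster, all but Mmp8 and Mmp20, hold the same letters near an annotated start, and that of Timp1 because it is a called member with a related motif. A match describes letters and not a site of binding, and the form TGAGTAA shares letters with the forkhead core only where ACA follows, which it did not in Timp1. Each window below holds the motif in capitals with 11 bases on either side, and that of Mmp13 holds the motif on the opposite strand.
Mmp1a: gttgtcaaccaTGAGTCAcatagcctctg
Mmp1b: gttacaaagccTGAGTCAtatagcctctg
Mmp3: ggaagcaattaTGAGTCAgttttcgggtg
Mmp7: aagtgtgcaaaTGAGTCAcctatttccac
Mmp10: tagcacccatgTGAGTCAtgcttagtgac
Mmp12: gacatcaacagTGAGTCAgatagaggatt
Mmp13: ccccaaagtggTGACTCAtcactatcatg
Timp1: cggtgggtggaTGAGTAAtgcgtccagga
The windows lay on the plus strand, that of Mmp1b on the minus strand, at chr9:7464057-7464085 (Mmp1a), chr9:7388102-7388130 (Mmp1b), chr9:7445765-7445793 (Mmp3), chr9:7692016-7692044 (Mmp7), chr9:7502268-7502296 (Mmp10), chr9:7347319-7347347 (Mmp12), chr9:7272468-7272496 (Mmp13) and chrX:20870181-20870209 (Timp1). The motif lay before the transcript start of its entry in the 7 MMP genes and after it in Timp1. For Mmp12 that start lies within the annotated gene, and the entry at the first base of Mmp12 did not hold the motif.

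Raw signal had a median between 57.3 and 89.3 per array and separated 6 bright arrays, called experiment A, from 6 dimmer arrays, called experiment B. The former held 2 wildtype and 4 Foxf1+/- lungs, and the latter 4 wildtype and 2 Foxf1+/- lungs. The study ran the arrays in 2 experiments, which the labels do not name, so this split is inferred from the signal. Levels are given on the log2 scale after background correction and quantile normalization, and fold changes come from a limma fit of genotype and experiment with p-values adjusted over 33947 probes by the Benjamini-Hochberg method. A gene was called when this adjusted p was under 0.05. Foxf1 itself ranged from 11.08 to 12.02 (median 11.58) in wildtype and from 9.999 to 11.35 (median 11.001) in Foxf1+/- lungs. It fell by 1.00 ± 0.13 on the log2 scale (SE, n = 6 per genotype, adjusted p = 0.00224; exact permutation test within experiments, two-sided, p = 0.00444), although where its probe lies relative to the deleted exon was not established. Of the marker genes of other cell types, all 6 of mast cells were higher in Foxf1+/- lungs, with a summed signal of 4410 to 6420 against 919 to 1320 in wildtype lungs. Markers of skeletal muscle (879 to 12200 across all arrays) and of squamous epithelium (497 to 9000) varied strongly between lungs of both genotypes, and those of T cells and thymus reached 4910 in wildtype replicate 5 against at most 466 elsewhere. None of the markers tested in these last 3 lists was called. Lung epithelial markers were high in every array (54100 to 75200), although Epcam lay near the floor. In whole lungs, fewer cells of a type and less RNA per cell cannot be told apart.

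Of the 73 members, 34 lay near the floor of the arrays in both genotypes, meaning a mean log2 level of at most 6.38, another 5 did so in 1 genotype, and 34 were above it in both. The 34 at the floor included 20 of the 21 ADAMs in the group of male germ line and other ADAMs, all but Adam32. They also included Adam10, the main sheddase of Notch receptors, on both of its probes. A level near the floor describes the probe and does not show that the transcript was absent, and how well these probes detect it was not tested. Of the MMPs, Mmp12 (macrophage elastase), Mmp8 (neutrophil collagenase), Mmp7 (matrilysin), Mmp10 (a stromelysin), Mmp20 (the enamel enzyme), Mmp1b, Mmp19, Mmp21 and Mmp25 lay there. Their levels were between 5.72 and 6.62 in every array. The 22 of them that could be tested had log2 fold changes from -0.05 to 0.08, with no adjusted p below 0.568. At such levels a change in transcript is damped or not detectable, so these values do not show that the genes were unchanged. The other 12 (Adam2, Adam18, Adam25, Adam26b, Adam34, Adam34l, Adam39, Adamts3, Mmp1b, Mmp7, Mmp8 and Mmp20) fell below the filter on dim probes.

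Few of the metalloproteinase genes were called between the genotypes, which does not show that the others were unchanged. Among the 61 members that passed the filter, 3 were called, or 4.92%, beside 2.97% of all probes tested. Timp1 and Adamts4 were higher in Foxf1+/- lungs, or 3.28% beside 1.74% of all probes, and Adam23 was lower, or 1.64% beside 1.22%. An unadjusted p under 0.05 was reached by 14 of the 61 members (8 higher and 6 lower), or 23%, beside 16.5% of all probes. The median log2 fold change was 0.01 over the 61 members, 0.03 over the 34 members above the floor and 0.00 over all probes. The median absolute log2 fold change of those 34 members was 0.17, against 0.08 for all probes, many of which lie at the floor.

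**Figure D1:**
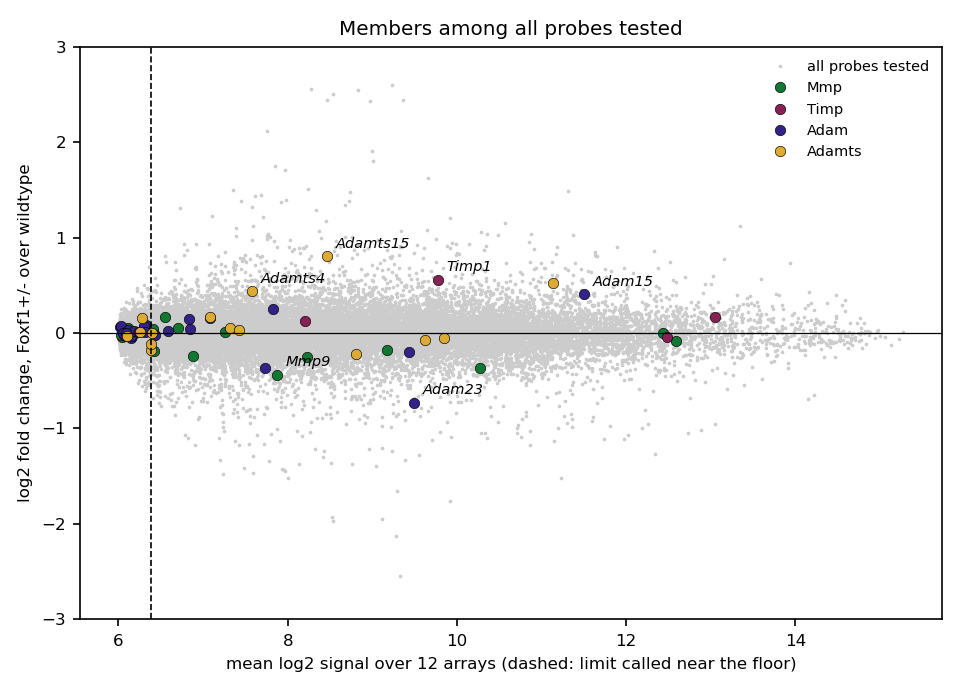
Log2 fold change of Foxf1+/- over wildtype lungs (y axis) against the mean log2 signal over 12 arrays (x axis) for the 33947 probes tested (grey) and the 61 members tested, coloured by family. The dashed line marks the limit called near the floor, and most members lie close to a fold change of 0, with Adamts15 at 0.81 and Adam23 at -0.73 as the outermost members.

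Adam23, a member of a small group of ADAMs that lack an active protease site, binds integrins and is best known as a partner of LGI proteins in nerve tissue. Its log2 level ranged from 9.65 to 10.23 (median 9.85) in wildtype and from 8.85 to 9.47 (median 9.01) in Foxf1+/- lungs. Every Foxf1+/- lung lay below every wildtype lung, in either experiment and across them. The level fell by 0.73 ± 0.13 on the log2 scale (95% interval -1.01 to -0.45, a 1.66-fold decrease, adjusted p = 0.0114), the within-experiment decreases being -0.61 (A) and -0.86 (B). Without Foxf1+/- replicate 6 it fell by 0.63, with an adjusted p of 0.0536, and without any of the other 11 arrays it remained called. A dimmer probe of Adam23 (chr1:63445717-63596111) lay at the floor and could not be tested. Adam22, the related LGI receptor, had a log2 fold change of 0.02 (adjusted p = 0.861), and Adam11, the third of this group, lay near the floor.

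Timp1, an inducible inhibitor of most secreted MMPs, was the only inhibitor that was called. Its log2 level ranged from 9.23 to 9.72 (median 9.65) in wildtype and from 9.42 to 10.47 (median 10.02) in Foxf1+/- lungs. The genotypes overlapped across experiments but not within them, although in experiment A the closest lungs, at 9.42 each, were separated by less than 0.01. The level was 0.56 ± 0.12 higher on the log2 scale (95% interval 0.29 to 0.82, 1.47-fold, adjusted p = 0.0309), with differences of 0.54 (A) and 0.57 (B) within the experiments. A second probe of Timp1 (chrX:20870166-20874737) was higher by 0.59 ± 0.13 (adjusted p = 0.0324), a call that 6 of 12 single omissions ended (adjusted p up to 0.131). The call of the chosen probe also rested on single lungs, since it was lost when wildtype replicate 1, 2, 3, 4 or 6 or Foxf1+/- replicate 3 or 6 was left out, with an adjusted p of up to 0.128. Over all 12 omissions the log2 fold change of Timp1 lay between 0.47 and 0.64.

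The other inhibitors were not called, and whether their changes differed from that of Timp1 was not tested. Timp2, which also takes part in the activation of pro-Mmp2, ranged from 11.99 to 12.89 (median 12.26) in wildtype and from 11.96 to 13.05 (median 12.75) in Foxf1+/- lungs. The levels of Timp2 separated by experiment and not by genotype, at 12.71 to 13.05 in experiment A, with 4 Foxf1+/- lungs, and 11.96 to 12.34 in experiment B, with 2. The medians thus differ with the split of the genotypes over the experiments. With the experiment in the fit, the log2 fold change was -0.04 ± 0.09 (95% interval -0.23 to 0.15, adjusted p = 0.885). Timp3, the matrix-bound inhibitor that also acts on ADAMs and ADAMTS enzymes, ranged from 12.48 to 13.34 (median 12.86) in wildtype and from 12.96 to 13.37 (median 13.19) in Foxf1+/- lungs, again with overlap. Its log2 fold change was 0.16 ± 0.10 (95% interval -0.05 to 0.38, adjusted p = 0.466) on the brightest probe, 0.44 ± 0.12 on another (adjusted p = 0.0814) and 0.02 on the third. Its probes thus differed in the size of the change, and none was called. Timp4, an inhibitor known from heart and vessels, ranged from 7.91 to 8.25 (median 8.13) in wildtype and from 7.89 to 8.99 (median 8.21) in Foxf1+/- lungs. Its log2 fold change was 0.13 ± 0.15 (95% interval -0.20 to 0.46, adjusted p = 0.760), with 0.38 in A against -0.13 in B, and the upper end in the Foxf1+/- lungs was set by replicate 2.

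The ADAMTS enzymes that cut aggrecan, versican and other proteoglycans comprised 5 members, and 1 of them was called. Their log2 fold changes ranged from 0.00 to 0.81 with a median of 0.44, beside 0.00 for all probes, many of which lie at the floor. With so few members this median is the value of Adamts4 itself, and the dim genes Adamts8 and Adamts20 lay at 0.00 and 0.01. Adamts4, an aggrecanase, ranged from 7.11 to 7.55 (median 7.30) in wildtype and from 7.46 to 8.12 (median 7.83) in Foxf1+/- lungs. The genotypes were apart in experiment A and overlapped in experiment B, where Foxf1+/- replicate 6 lay at 7.46 and wildtype replicate 4 at 7.55. The level was 0.44 ± 0.11 higher on the log2 scale (95% interval 0.21 to 0.67, 1.35-fold, adjusted p = 0.0482). This value lay just inside the threshold, and Adamts4 (chr1:171250129-171262267) remained called only without wildtype replicate 4 or Foxf1+/- replicate 6, while the omission of any other array raised the adjusted p to as much as 0.148.

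Adamts15, which cuts versican, lay just outside the threshold. It ranged from 7.69 to 8.59 (median 8.14) in wildtype and from 8.39 to 9.49 (median 8.80) in Foxf1+/- lungs, and in experiment A wildtype replicate 2, at 8.59, lay among the Foxf1+/- lungs. Its log2 fold change of 0.81 ± 0.20 (95% interval 0.37 to 1.25, 1.75-fold, adjusted p = 0.0541) was the largest among the members that were tested. Adamts15 (chr9:30899155-30922452) passed without wildtype replicate 2 (adjusted p = 0.0178) or Foxf1+/- replicate 3 (adjusted p = 0.0498), and the value without single arrays lay between 0.61 and 1.03.

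Adamts9, a versican- and aggrecan-cleaving enzyme of vessels and mesenchyme, was singled out after its values were seen because its probes differed. On the brightest probe it ranged from 10.42 to 11.25 (median 10.999) in wildtype and from 10.49 to 11.68 (median 11.61) in Foxf1+/- lungs, where replicate 2 lay among the lowest of all lungs. The log2 fold change on that probe was 0.53 ± 0.22 (95% interval 0.04 to 1.01, adjusted p = 0.259). On a dimmer probe the levels were 7.41 to 8.20 (median 7.64) in wildtype and 8.25 to 8.77 (median 8.51) in Foxf1+/- lungs, with no overlap. There the log2 fold change was 0.63 ± 0.08 (95% interval 0.45 to 0.81, adjusted p = 0.00228), and it remained called without any single array. The probes of Adamts9 (chr6:92772699-92944450) thus pointed the same way and differed in their spread. The remaining members of the group, Adamts8 and Adamts20, lay near the floor in at least 1 genotype.

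Fibroblast and mesenchymal markers were looked at beside these enzymes. Of 7 such markers, 2 were called higher (Col3a1 and Pdgfra) and none lower. The call of Col3a1 remained in only 2 of 12 single omissions. The markers not called lay on both sides of 0, namely Col1a1 (0.25), Col1a2 (0.22), Dcn (-0.08), Pdgfrb (-0.10) and Tcf21 (-0.19). The summed signal of all 7 was 18600 to 30000 in wildtype and 21300 to 32100 in Foxf1+/- lungs, with none near the floor. The part of these markers and of the mast cell markers in the values of Timp1 and the ADAMTS genes was not tested.

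**Figure D2:**
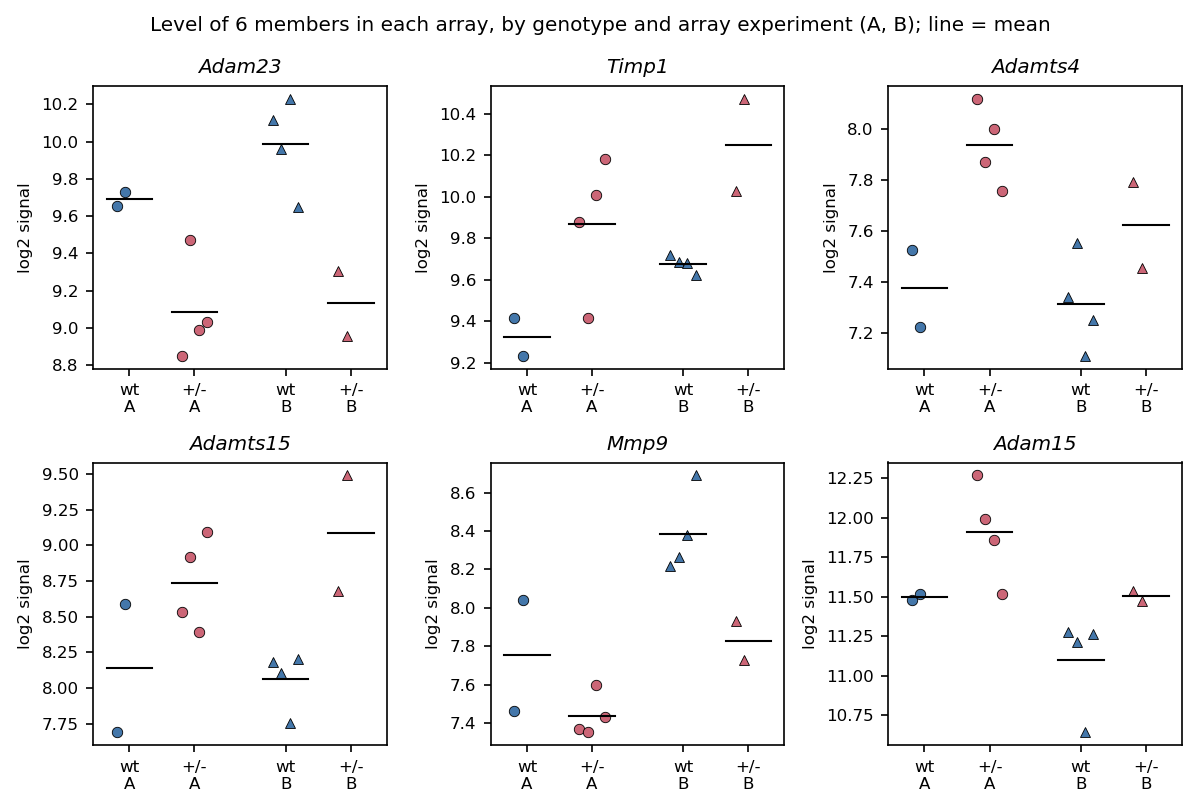
Log2 signal (y axis) of Adam23, Timp1, Adamts4, Adamts15, Mmp9 and Adam15 in each of the 12 lungs, by genotype (wt, wildtype in blue; +/-, Foxf1+/- in red) and array experiment (circles, A; triangles, B), with lines at the group means. For Adam23 the Foxf1+/- lungs lie between 8.85 and 9.47 and the wildtype lungs between 9.65 and 10.23.

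Adam15, an ADAM of endothelial and other cells, was the nearest to the threshold among the ADAM proteases. It ranged from 10.64 to 11.52 (median 11.27) in wildtype and from 11.47 to 12.27 (median 11.70) in Foxf1+/- lungs, and the genotypes were apart within each experiment, in experiment A by less than 0.01. Its log2 fold change was 0.41 ± 0.14 (95% interval 0.11 to 0.71, adjusted p = 0.148) and had the same size, 0.41, in either experiment. Of the 4 dimmer probes of Adam15 (chr3:89339640-89350028), 1 was called, with 0.56 ± 0.11 (adjusted p = 0.0197). Omitting wildtype replicate 1, or Foxf1+/- replicate 5 or 6, ended that call. The others had log2 fold changes of 0.33, 0.17 and 0.03 and were not called. Of 6 endothelial markers, Emcn was higher by 0.56 ± 0.12 (adjusted p = 0.0341) and Cldn5 fell by 1.05 ± 0.11 (adjusted p = 0.000379), with 4 not called, none near the floor and a summed signal of 23400 to 30900 in wildtype and 18700 to 30400 in Foxf1+/- lungs. Their part in the values of Adam15 was not tested.

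With Adam23, Timp1 and Adam15, 3 of the 61 members had genotypes that did not overlap in either experiment, or 4.92%, beside 5.26% of all probes (2 members higher beside 3.01%, and 1 lower beside 2.25%). The share of such members was thus close to that of all probes. Over all of their probes, 6 of the 111 that passed the filter were called, or 5.41% beside 2.97% of all probes, and these belonged to 5 genes, namely Adam23, Timp1 with 2 probes, Adamts4, Adam15 and Adamts9.

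None of the MMPs was called. Mmp9, the gelatinase of neutrophils, macrophages and remodelling tissue, was the nearest to the threshold. It ranged from 7.46 to 8.69 (median 8.24) in wildtype and from 7.35 to 7.93 (median 7.51) in Foxf1+/- lungs, and wildtype replicate 1, at 7.46, lay among the Foxf1+/- lungs of its experiment. In experiment B all 4 wildtype lungs were above both Foxf1+/- lungs. The log2 fold change was -0.44 ± 0.12 (95% interval -0.69 to -0.18, adjusted p = 0.0690), and without wildtype replicate 1 Mmp9 (chr2:164940326-164955850) passed, with -0.58 and an adjusted p of 0.0233.

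Some neutrophil markers moved beside Mmp9, in both directions. Of 9 markers, Lcn2 was higher by 0.68 (adjusted p = 0.0264) and Ltf fell by 1.05 (adjusted p = 0.0308), both of them granule proteins, and 7 were not called. The call of Lcn2 ended in 2 of 12 single omissions (adjusted p up to 0.102) and that of Ltf in 5 (adjusted p up to 0.114). At an unadjusted p under 0.05, 1 of the 9 was higher and 3 were lower, the latter being Ltf, Camp (log2 fold change -0.74, adjusted p = 0.0656) and S100a9 (-0.42, adjusted p = 0.130). Their summed signal was 14300 to 23000 in wildtype and 16200 to 19900 in Foxf1+/- lungs, and none was near the floor. None of 7 macrophage markers was called, with summed signals of 14400 to 22300 and 12300 to 19400. Their part in the values of Mmp9 was not tested.

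Mmp2, the gelatinase of mesenchymal cells, was bright in every lung, from 12.14 to 12.68 in wildtype and from 12.12 to 12.74 in Foxf1+/- lungs. The log2 fold change of Mmp2 was 0.00 ± 0.09 (95% interval -0.21 to 0.20, adjusted p = 0.994). Mmp14, the membrane-bound MMP that activates pro-Mmp2, ranged from 12.09 to 13.29 in wildtype and from 11.91 to 13.03 in Foxf1+/- lungs. Its levels separated by experiment and not by genotype, and the log2 fold change was -0.09 ± 0.09 (95% interval -0.28 to 0.10, adjusted p = 0.694). For both bright genes the 95% intervals stayed within 0.28 on the log2 scale in either direction.

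The 6 membrane-bound MMPs had log2 fold changes from -0.25 (Mmp24, adjusted p = 0.207) to 0.05, with a median of -0.13. The 3 stromelysins tested lay between -0.36 and 0.17. Mmp3, or stromelysin 1, set the upper end on its chosen probe (adjusted p = 0.406). Its dimmer probes, near the floor in at least 1 genotype, were at 0.25 (adjusted p = 0.1275) and 0.07 (adjusted p = 0.599). Mmp11, a stromelysin of stromal cells, set the lower end (adjusted p = 0.465). Its levels in Foxf1+/- replicates 4 and 6 were 9.57 and 9.24, while the other 10 lungs of both genotypes lay at 10.18 or higher. Of the 4 collagenases, 2 were tested, and the chosen probe of Mmp13, the collagenase of cartilage and bone, was high only in wildtype replicate 3 (7.61), with the other 11 lungs at 6.44 or lower. On its other probes the highest wildtype level was 6.54 and 6.09, so that neither showed a high lung. The summed signal of 7 cartilage markers in wildtype replicate 3 was 1970, the highest of the 6 wildtype lungs, with 1930 in wildtype replicate 5. Over all lungs the sum ranged from 1380 to 2320, and 4 of the 7 markers lay near the floor. The part of these markers in the high level of Mmp13 was not tested.

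The 8 ADAM proteases of somatic cells had log2 fold changes from -0.36 to 0.41 with a median of 0.09, and none was called. Adam17, the enzyme that releases TNF and ligands of the EGF receptor, ranged from 9.26 to 10.06 (median 9.58) in wildtype and from 8.99 to 9.75 (median 9.08) in Foxf1+/- lungs. The genotypes overlapped in experiment B, and its log2 fold change was -0.20 ± 0.09 (adjusted p = 0.291). Adam28, an ADAM first known from lymphocytes, marked the lower end of the group with -0.36 ± 0.16 (adjusted p = 0.266), and Adam9 followed Adam15 at the upper end with 0.26 (adjusted p = 0.328). Adamts14, a procollagen-cleaving enzyme near the floor in 1 genotype, had a log2 fold change of 0.15 (adjusted p = 0.201), and Adamts3, the other member of that group, did not pass the filter. The 9 ADAMTS enzymes outside the proteoglycan-cleaving and procollagen-cleaving groups had a median of -0.06 and a range of -0.22 to 0.17, with no call. Among them the chosen probe of Adamts10, which binds fibrillin microfibrils, changed sign with the experiment block. Its log2 fold change was -0.22 ± 0.12 (adjusted p = 0.397) with the block, while the plain difference of the means was 0.13, and its levels were higher in experiment A, which holds most of the Foxf1+/- lungs. Another probe of Adamts10 had a log2 fold change of -0.32 ± 0.08 (adjusted p = 0.0615) with the block and a plain difference of -0.37, with the genotypes apart in both experiments. The remaining probes past the filter behaved like the chosen one. With the block they were at -0.15 (adjusted p = 0.676) and -0.10 (adjusted p = 0.802), with plain differences of 0.07 each and genotypes that overlapped.

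**Figure D3:**
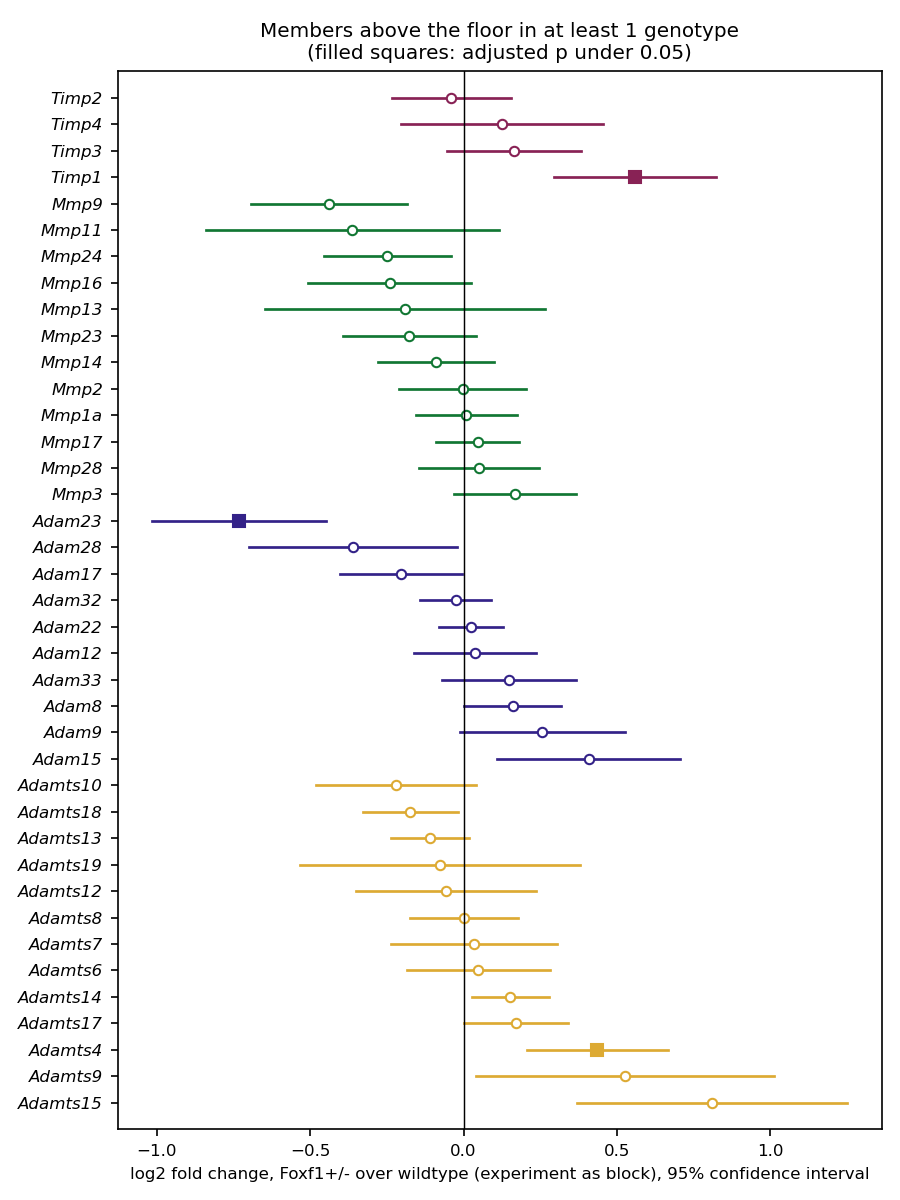
Log2 fold change of Foxf1+/- over wildtype lungs with its 95% confidence interval (x axis) for the 39 members above the floor in at least 1 genotype, grouped and coloured by family, with filled squares for the 3 called genes Adam23, Timp1 and Adamts4. The Mmp points lie between -0.44 (Mmp9) and 0.17 (Mmp3), while Adamts15 at 0.81 has the highest value.

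The effect of genotype did not differ detectably between the experiments. The interaction of genotype and experiment was called in limma for none of the 61 members and for 0 of the 33947 probes, with an unadjusted p under 0.05 in 2 members and in 3.36% of all probes. Within experiment A, with 2 wildtype lungs, and within experiment B, with 2 Foxf1+/- lungs, no member was called.

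**Figure D4:**
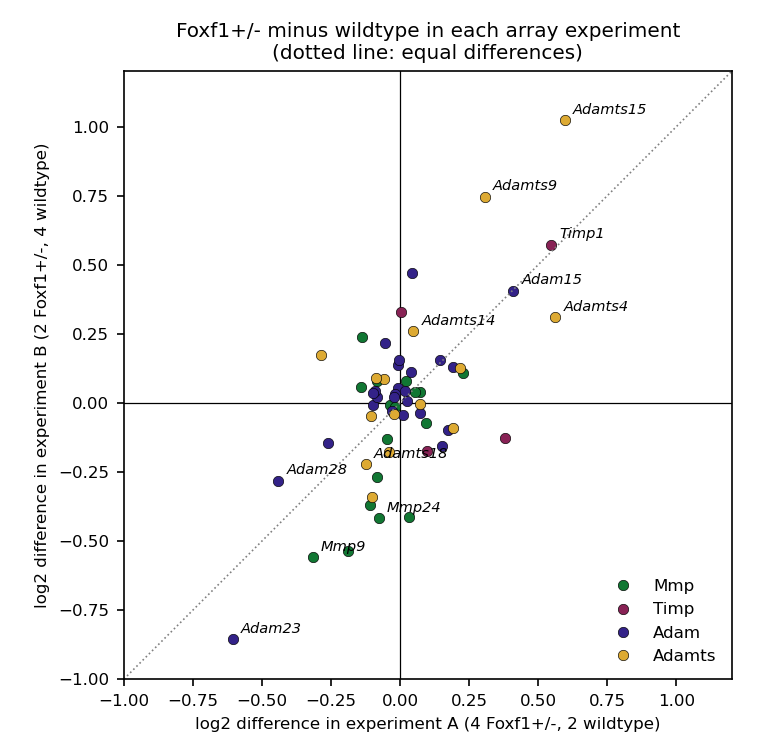
Log2 difference of Foxf1+/- minus wildtype lungs in experiment B (y axis; 2 Foxf1+/-, 4 wildtype) against that in experiment A (x axis; 4 Foxf1+/-, 2 wildtype) for the 61 members tested, coloured by family, with a dotted line of equal differences. Adam23 lies at -0.61 and -0.86, Timp1 at 0.54 and 0.57 and Adamts15 at 0.60 and 1.02.

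Other genes around the metalloproteinases were counted by list. Of all probes tested, 2.97% were called, 1.74% higher and 1.22% lower. The lists are small and were chosen with earlier results of these data known, so their counts are not read as results about the lists. Of 16 other inhibitors and binding partners that were tested, 2 were higher and 1 was lower, with a median log2 fold change of 0.03. Thbs1, which encodes thrombospondin 1, a matrix protein that binds MMPs and activates TGF-beta, ranged from 8.19 to 9.71 (median 8.89) in wildtype and from 9.93 to 11.11 (median 10.17) in Foxf1+/- lungs. No Foxf1+/- lung overlapped a wildtype lung, and the log2 fold change was 1.08 ± 0.19 (adjusted p = 0.00928), which remained called without any single array. The ADAMTS-like genes encode secreted proteins that resemble ADAMTS enzymes without the protease part. Adamtsl2, which binds latent TGF-beta binding protein and fibrillin, was higher by 0.64 ± 0.14 (adjusted p = 0.0350), and Adamtsl3 fell by 0.40 ± 0.07 (adjusted p = 0.0138). Leaving out single arrays ended the call of Adamtsl2 in 7 of 12 cases, with an adjusted p of 0.129 when Foxf1+/- replicate 6 was omitted. Adamtsl3 lost its call when wildtype replicate 1 or Foxf1+/- replicate 5 or 6 was omitted.

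None of the 10 activators of the proenzymes and none of the 8 partners of Adam10 and Adam17 that were tested was called, with median log2 fold changes of 0.11 and -0.12. An unadjusted p under 0.05 was reached by 3 genes in each list, beside 16.5% of all probes. Of 24 substrates that are shed from the cell surface, 1 was higher, beside 1.74% of all probes. Hbegf, a ligand of the EGF receptor that Adam17 and other ADAMs release, ranged from 9.26 to 10.19 (median 9.48) in wildtype and from 9.63 to 10.78 (median 10.48) in Foxf1+/- lungs. The genotypes were apart within each experiment, and the log2 fold change was 0.43 ± 0.09 (adjusted p = 0.0197), a call that ended when wildtype replicate 1 or 2 or Foxf1+/- replicate 5 was omitted.

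Of 9 matrix substrates of ADAMTS enzymes, 2 were higher and 1 was lower, beside 1.74% and 1.22% of all probes, with a median log2 fold change of 0.14. Among them, Col3a1 was also counted as a fibroblast marker above. Vcan, the gene of versican, which Adamts4, Adamts9 and Adamts15 cut, ranged from 7.07 to 7.47 (median 7.36) in wildtype and from 7.60 to 7.91 (median 7.68) in Foxf1+/- lungs, with no overlap. The log2 fold change of Vcan was 0.36 ± 0.08 (adjusted p = 0.0355). Col3a1, which encodes a fibrillar procollagen, was higher by 0.62 ± 0.14 (adjusted p = 0.0407), and Vwf, the von Willebrand factor that Adamts13 cuts, fell by 0.44 ± 0.11 (adjusted p = 0.0452). These 3 calls rested on the full set of arrays, since 7 (Vcan), 10 (Col3a1) and 8 (Vwf) of the 12 omissions of 1 array ended them, at most with adjusted p-values of 0.114 for Vcan and 0.153 for Col3a1 when Foxf1+/- replicate 6 was omitted and 0.159 for Vwf when Foxf1+/- replicate 5 was omitted. Of 8 other metzincins and lung metalloproteinases, Ece2, an endothelin-converting enzyme, was higher by 0.35 ± 0.07 (adjusted p = 0.0186), a call that omitting wildtype replicate 2 or Foxf1+/- replicate 5 ended.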

How the data were processed

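The authors deposited raw probe intensity (linear, with no background subtraction or normalization). They also deposited processed log2 values, which per the study's methods came from lumi (robust spline normalization, variance stabilization) followed by ComBat between the array experiments. No versions of lumi or ComBat are given in the sources read. Processed columns had medians of 7.18 to 7.19, and in ranks of the 10000 brightest probes each raw column correlated best with the processed column of its own lung (r of at least 0.623, against at most 0.549).

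Intensities received the normexp background correction of limma 3.58.1 under R 4.3.3 with an offset of 50, followed by log2 and quantile normalization. The offset damps changes of dim genes. 18 probes with shifted cells were left out, which left 45263, of which 34874 had 1 gene symbol, 18 several and 10371 none. The files hold no detection p-values, so probes with a mean above the 25th percentile (log2 6.01) were tested, 33947 in all. Near the floor means a mean at or under the 5th percentile of probe means plus 0.5. Experiments were inferred by 2-means on raw signal percentiles. Limma fitted genotype and experiment, two-sided, with Benjamini-Hochberg adjustment. Precision is limited by the number of arrays. The scripts were tested on simulated data.

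The members and lists were chosen with earlier results of these data known. Named were the called members, the 3 next by p, all Timp genes, Foxf1 and called genes of the other lists, of which the fibroblast, endothelial, mast cell and neutrophil lists served as markers. Adamts9, the MMPs other than Mmp9, the somatic ADAMs other than Adam15 and Adamts10 were added after their values were seen. All 73 members matched a gene of RefSeq (GRCm38.p6), which gave the positions and promoter sequences. Alternatives were other background corrections, scaling, filters, blocks, array weights, covariates and probe rules, the processed values, the methods' t-test and leaving out each array.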

Additional observations from a re-analysis of the deposited data

Results flagged for a closer look

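In each genotype the 6 levels of every tested member were checked for a single lung far from the rest by Dixon's ratio of gap to range at the 95% level. Of 122 groups, 5 stood out, where chance gives about 1 in 20. The levels were not corrected for the experiment, so that rate need not hold here. Mmp13, a collagenase, lay at 7.61 in wildtype replicate 3, with the next wildtype lung at 6.42, while on its other probes no wildtype lung lay above 6.54. Adam15 lay at 10.64 in wildtype replicate 5, below the next lung at 11.21, and this was also the lung with the high T cell and thymus markers. Adam8, an ADAM of myeloid cells, lay at 7.23 in wildtype replicate 6, with the next lung at 7.03. Near the floor, Adam5 lay at 6.41 in wildtype replicate 2 and Adam26a at 6.30 in Foxf1+/- replicate 5. No cause was tested for any of them.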

How the results depend on the processing

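The count of called members, 3 as reported, was 0 within experiment A alone, 0 within experiment B alone and 0 with the replicate number as a block. It was 5 with the authors' processed values and 5 with the mean of all probes of a gene. With alternatives chosen after seeing the data it was 5 with the skeletal muscle marker level as a covariate and 5 with any probe of a gene, and it ranged from 1 to 2 when single arrays were left out. The count of all called probes (1007, with 592 higher and 415 lower) was 2582 with processed values, 501 without the experiment block, 10 within experiment A, 56 within experiment B, 149 with the replicate block, 1579 by the methods' t-test on processed values after Benjamini-Hochberg adjustment and 1869 with the muscle covariate, and ranged from 405 (without Foxf1+/- replicate 6) to 1108 when single arrays were left out. Median scaling called 497 higher and 181 lower. The log2 fold change of Foxf1 was -0.73 without the experiment block (adjusted p = 0.184), -0.80 within A (adjusted p = 0.174), -1.199 within B (adjusted p = 0.0695) and -0.96 with the replicate block (adjusted p = 0.0933), and lay between -1.08 and -0.89 when single arrays were left out. The log2 fold change of Timp2 turned to 0.22 without the experiment block, to 0.10 within A and to 0.0011 without Foxf1+/- replicate 6 (range over single omissions -0.11 to 0.0011), and that of Timp4 to -0.13 within B. The experiments alone hold fewer arrays, and the causes of the other changes were not tested.

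Adam23, Timp1 and Adamts4 kept their direction in all 15 alternatives beside single omissions. Adam23 passed in 12 of them, Timp1 in 11 (0.44, adjusted p = 0.194, without the experiment block) and Adamts4 in 9 (0.106 with median scaling, 0.0583 with no filter and 0.0644 with the Xist level as a covariate). Adamts15 passed in 7, among them processed values (0.0181), and Mmp9 in 2, with processed values (0.0271) and with the muscle covariate (0.0161). Replicate numbers are shared by the genotypes, but the labels do not say that they pair lungs. Deviations from the group means of lungs with the same number followed the experiments. They correlated between 0.21 and 0.48 where both lungs lay in 1 experiment, and at -0.49 and -0.31 for numbers 3 and 4, where they did not. These values therefore cannot decide about pairing. After the fit of genotype and experiment the correlations lay between -0.39 and -0.05. None of the 3 calls held with the replicate block (adjusted p = 0.0642 for Adam23, 0.137 for Timp1 and 0.0991 for Adamts4). Low signal limits the 34 members near the floor.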
